A study of Mus musculus with 2 samples.

Results

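The cells described here are colon lamina propria cells that carried Plet1, Itgae and Dpp4 transcripts together with high MHC class II, and that held few or none of the transcripts that define the other dendritic cells. They were chosen by their own counts of UMIs (unique molecular identifiers, each marking 1 captured transcript). A cell was kept with at least 3 UMIs of Plet1, Itgae and Dpp4 summed, at least 10 of H2-Aa, under 5 of Cd209a, Mgl2 and Clec10a, under 2 of Xcr1 and Clec9a, under 5 of Ccr7, Fscn1 and Ccl22, none of Cd3e, Cd3d and Cd79a, and under 0.2% of its UMIs from C1qa, C1qb and C1qc. Among cells with 200 to 6000 genes and at most 15% mitochondrial UMIs, 42 of 2597 were chosen in the wild-type library (1.62%) and 21 of 2514 in the knockout library (0.835%), 63 of 5111 in all. The genes of this rule are described below without any test, because they chose the cells.

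The series held 1 droplet library of CD11b-labelled mouse colon cells per genotype, wild type (WT) and a knockout of a long noncoding RNA labelled LncRNA17Rik (KO). Per the study's methods, the KO allele was made with CRISPR-Cas9 and guides placed before exon 1 and after exon 2, on a C57BL/6J background, other mice are given as C57BL/6, and all were kept free of specific pathogens. The cells were pooled from 6 male mice aged 8 weeks, and whether that number holds for each library or for both together is not stated. Per the labels, lamina propria cells came through a Percoll gradient with dead cells removed by 7-AAD. The mice of a pool cannot be told apart, so every interval below covers counting error only, and the genotype cannot be told apart from the library. The features were searched for the names LncRNA17Rik and lncLy6c alone, which matched no symbol, and the genotype label was not checked on the deleted gene.

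Type 2 conventional dendritic cells (cDC2) are antigen-presenting cells that rely on the transcription factor Irf4, and in the intestine a Notch2-dependent branch of them carries CD103, the product of Itgae, beside CD11b. Type 1 cells (cDC1) rely on Irf8 and Batf3, carry Xcr1 and Clec9a, and in the gut also bear CD103. Both descend from precursors that respond to Flt3 ligand through the receptor Flt3, and mature forms of both turn on Ccr7, the receptor that guides them to the draining lymph node.

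The chosen cells held 503328 UMIs in WT and 322006 in KO. A WT cell held 3057 to 38823 UMIs (median 10675.5) and a KO cell 4468 to 29522 (median 14378), with medians of 2744.5 and 3232 genes. For comparison, 3 other groups were set apart by the genes of the rule: 87 WT and 165 KO Cd209a Mgl2 cDC2, 33 and 65 cDC1, and 41 and 17 C1q macrophages. The Cd209a Mgl2 cDC2 were limited to cells with under 3 summed UMIs of Plet1, Itgae and Dpp4, which fixes low levels of these genes there. Levels are given as UMIs and as CPM (the UMIs of a gene over the summed cells, scaled to the usual common total), and ratios as log2 of KO over WT after adding 1 CPM, with 95% exact counting intervals. In each pair of values WT comes first.

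The trio that chose the cells was not made up alike in the libraries. Plet1, which encodes a glycosyl-phosphatidylinositol-anchored surface protein and lies on chromosome 9 of GRCm38, the mm10 build (50494525 to 50505482, plus strand; all genes with a position here are protein coding), gave 273 UMIs in 28 of the 42 WT cells, with a median of 4 and a highest cell of 34. In KO it gave 11 UMIs in 4 of the 21 cells, with a highest cell of 4. The WT cells thus carried most of the Plet1, and the levels were 542 and 34.2 CPM.

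Itgae, the alpha chain of the CD103 integrin that binds E-cadherin (chromosome 11, 73090583 to 73147446, plus strand), gave 153 UMIs in 29 WT cells and 45 UMIs in 12 KO cells, or 304 and 140 CPM (log2 -1.12, but 0.03 when cells were thinned to 3000 UMIs before they were chosen). Dpp4, a surface peptidase also known as CD26 (chromosome 2, 62330073 to 62412231, minus strand), gave 70 UMIs in 32 WT cells and 51 UMIs in 19 KO cells, or 139 and 158 CPM. All 3 genes were seen together in 16 of 42 WT cells and 4 of 21 KO cells. Dpp4 alone met the minimum in 8 WT and 9 KO cells, Itgae alone in 1 and 2, and Plet1 alone in 2 and 0.

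Among the cells just inside the minimum, with exactly 3 UMIs of the trio (12 WT, 7 KO), Irf4 stood at 44.5 and 108 CPM and Irf8 at 205 and 735 CPM. Among the cells just outside it, with exactly 2 (23 WT, 22 KO), Irf4 stood at 48.0 and 59.4 CPM and Irf8 at 396 and 343 CPM. In both libraries the cells at the edge of the rule therefore held more Irf8 than Irf4 transcripts.

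The share of cells chosen turned on the limits of the rule. It was lower in KO at each minimum of the trio that was tried. With at least 2 UMIs, 65 WT cells (2.50%) and 43 KO cells (1.71%) passed. With at least 5 UMIs, 26 (1.00%) and 8 (0.318%) passed, and with at least 8 UMIs 21 and 2.

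**Figure D1:**
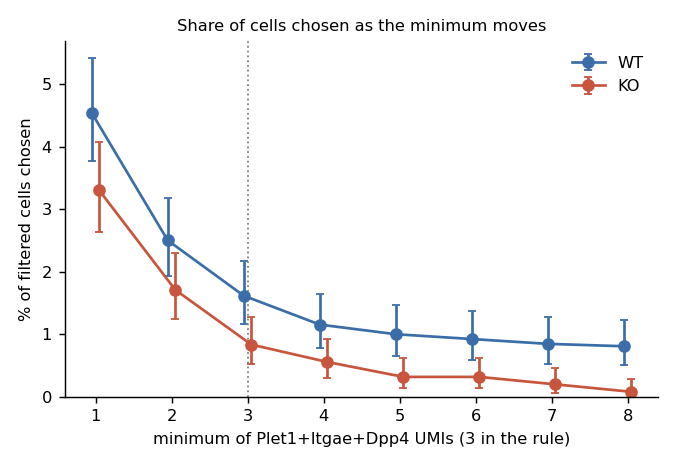
Percent of filtered cells chosen (y axis) against the minimum of summed Plet1, Itgae and Dpp4 UMIs (x axis), with 95% exact binomial intervals that cover counting error only, WT in blue and KO in red. The dotted line marks the minimum of 3 in the rule, where 1.62% of WT and 0.835% of KO cells were chosen.

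Of the 3 dendritic groups together, the chosen cells made up 25.9% in WT (19.4 to 33.4, Clopper-Pearson, 42 of 162) and 8.37% in KO (5.25 to 12.5, 21 of 251). The Cd209a Mgl2 cDC2 made up 53.7% and 65.7% of these cells, and cDC1 20.4% and 25.9%. All chosen cells are counted here, whatever their other markers. As described below, they include 2 WT cells high in Krt8, 6 WT and 1 KO cells high in Ly6c2, and 3 WT and 11 KO cells high in Irf8. These shares are thus not shares of cDC2 alone. The gap between the libraries nearly closed or turned when 1 of the next limits was left out. When the limit on Ccr7, Fscn1 and Ccl22 was dropped, 69 WT cells (2.66%) and 65 KO cells (2.59%) passed, a log2 ratio of shares of -0.04 (-0.55 to 0.47). When the limit on Cd209a, Mgl2 and Clec10a was dropped, 79 WT cells (3.04%) and 85 KO cells (3.38%) passed, a log2 ratio of 0.15 (-0.31 to 0.61).

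The limit that stopped each cell was followed in all cells with at least 10 H2-Aa and 3 trio UMIs, which numbered 168 in WT and 328 in KO. The limit on Ccr7, Fscn1 and Ccl22 was exceeded by 55 WT cells (32.7%) and 179 KO cells (54.6%), and that on Cd209a, Mgl2 and Clec10a by 62 (36.9%) and 190 (57.9%). Taken alone, with no other limit exceeded, the former stopped 27 WT cells (16.1%) and 44 KO cells (13.4%) and the latter 37 (22.0%) and 64 (19.5%). When each cell was counted once, with the Ccr7 limit taken first, the Cd209a limit stopped 41 and 71 of the others, that on Xcr1 and Clec9a then 22 and 53, the C1q limit 6 and 1, and the lymphocyte limit 2 and 3. Among these cells 25% were chosen from the WT library and 6.40% from the KO library.

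More than 1 limit was exceeded by 33 WT cells (19.6%) and 144 KO cells (43.9%). The limits are absolute UMI numbers, and the cells of this pool were deeper in KO, with a median of 19113 UMIs against 13180.5. After each cell was thinned to 3000 UMIs and shallower cells were left out, 46 of 1731 WT cells (2.66%) and 32 of 1749 KO cells (1.83%) were chosen, a log2 ratio of -0.54 (-1.24 to 0.14) against -0.95 without thinning. The difference in depth thus moved with the share, and its part in the result beyond this measurement was not tested.

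**Figure D2:**
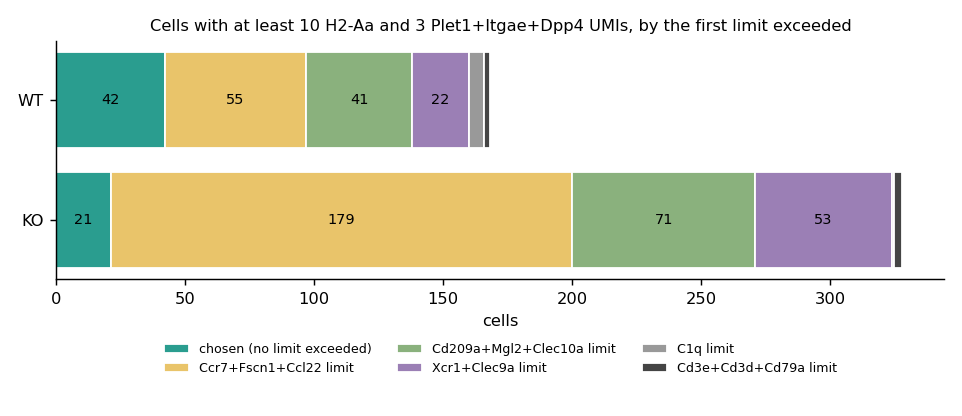
Cells with at least 10 H2-Aa and at least 3 trio UMIs (x axis, number of cells) in the WT and KO library, split by the first limit that each exceeded, in the order of the bar from left to right. The chosen cells are 42 of 168 in WT and 21 of 328 in KO, and the cells stopped by the Ccr7, Fscn1 and Ccl22 limit are 55 and 179.

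Plet1 was also followed in the cells that the limits stopped. In the pool of 168 and 328 cells, WT held 816 Plet1 UMIs in 98 cells (336 CPM) and KO held 1250 in 151 cells (186 CPM). Of these, the chosen cells held 273 in WT and 11 in KO, whereas the cells stopped by the Ccr7, Fscn1 and Ccl22 limit held 192 and 986. In those stopped cells the levels were 248 CPM for WT and 268 CPM for KO, and in the cells past the Cd209a, Mgl2 and Clec10a limit they were 409 and 231 CPM.

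Over all cells with at least 10 H2-Aa and under 10 Krt8 UMIs, Plet1 stood at 85.1 CPM in WT (79.4 to 91.2, 127 of 1122 cells) and 76.2 CPM in KO (72.1 to 80.4, 186 of 1203 cells). The background was read in C1q macrophages, where Plet1 is not a marker. It was seen in 3 of 41 WT macrophages (7.32%, median 5687 UMIs) and in 0 of 17 KO macrophages (median 8544 UMIs), which allows a share of up to 17.6% by a floor of 3 cells and up to 19.5% by the exact interval. The KO share of 4 of 21 chosen cells was 19.0% (5.45 to 41.9), and Plet1 helped to choose them.

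The label was checked against dendritic cell markers. Irf8, the cDC1 factor on chromosome 8 (120736358 to 120756694, plus strand), gave 51 UMIs in 12 of 42 WT cells, with a median of 0 and a highest cell of 12. In KO it gave 230 UMIs in 14 of 21 cells, with a median of 6 and a highest cell of 51. The levels of 101 and 714 CPM gave a log2 ratio of 2.81 (2.37 to 3.28), and the cells overlapped, since 7 KO cells had none.

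The size of that ratio depended on the rule. It was 0.73 after thinning to 3000 UMIs, 1.48 with a trio minimum of 2 and 0.79 without the limit on Ccr7, Fscn1 and Ccl22. It stayed above 2 without the Xcr1 and Clec9a UMI that the rule still allowed, at 2.53. With cells thinned but not chosen anew, Irf8 was seen in 3 of 42 WT and 11 of 21 KO cells.

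Irf4, on chromosome 13 (30749226 to 30766976, plus strand), gave 53 UMIs in 20 of 42 WT cells and 23 UMIs in 7 of 21 KO cells. The levels of 105 and 71.4 CPM gave a log2 ratio of -0.55 (-1.33 to 0.17), whose interval spans 0. Flt3, on chromosome 5 (147330741 to 147400489, minus strand), gave 107 UMIs in 32 WT cells and 55 in 19 KO cells, a log2 ratio of -0.31 (-0.81 to 0.17). Both markers were thus seen in both libraries, with no difference detectable at this depth. For comparison, C1q macrophages held Irf4 in 10 of 41 WT and 3 of 17 KO cells, and Flt3 in 1 of 41 and 1 of 17. For Irf4 the intervals of the chosen KO cells (33.3%, 14.6 to 57.0) and the KO macrophages (17.6%, 3.80 to 43.4) overlapped.

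The 12 genes of a cDC1 list summed to 664 CPM in the chosen WT cells and 1882 CPM in the chosen KO cells, against 3440 and 2719 CPM in the cDC1 group. The 12 genes of a cDC2 list summed to 2305 and 1441 CPM, against 4007 and 3795 CPM in the Cd209a Mgl2 cDC2. By the cDC1 list the WT cells lay near the Cd209a Mgl2 cDC2, at 471 CPM, and the KO cells lay between the groups. By the cDC2 list, which holds genes that the rule limits, the cells of both libraries lay between the cDC1, at 1295 and 1165 CPM, and the Cd209a Mgl2 cDC2. Markers of other cells were also read. Of 9 T and innate lymphocyte markers, 2 were seen in WT and 1 in KO, summing to 41.7 and 18.6 CPM, and the B and plasma cell list summed to 83.4 and 12.4 CPM. The epithelial list summed to 1619 and 31.1 CPM, the monocyte list to 2199 and 904 CPM, and the macrophage list to 405 and 472 CPM. The rule itself barred Cd3e, Cd3d and Cd79a and capped C1qa, C1qb and C1qc. The low sums of the T, B and macrophage lists were thus partly fixed by the choice of the cells.

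The chosen cells were mixed, and were divided by limits that were set after their values had been seen. In WT, 2 cells had at least 10 UMIs of Krt8, a keratin of epithelial cells (chromosome 15, 101996698 to 102004482, minus strand). Of the others, 6 WT and 1 KO cells had at least 5 UMIs of Ly6c2, a surface protein of inflammatory monocytes (chromosome 15, 75108158 to 75111970, minus strand). A further 3 WT and 11 KO cells had at least 5 UMIs of Irf8, which left 31 WT and 9 KO cells.

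The Krt8 cells were the deepest of all, at 36723 and 38823 UMIs, and held 15.0% of the WT UMIs. They carried 232 and 293 UMIs of Krt8, 41 and 64 of the epithelial adhesion molecule Epcam, and 13 each of H2-Aa, close to the minimum of 10. They had entered on 13 and 15 UMIs of Plet1, and Flt3, Irf4, Itgae and Kit were at 0 in both. Among all cells with at least 10 Krt8 UMIs, Plet1 was seen in 34 of 93 in the WT library (36.6%) and 1 of 5 in the KO library (20%, 0.505 to 71.6).

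The 6 Ly6c2 cells of WT had 5 to 66 Ly6c2 UMIs, with a median of 17, and 2 Plet1 UMIs among them. Ly6c2 summed to 142 UMIs there, out of 149 in all 42 WT cells. The 1 Ly6c2 cell of KO had 6 Ly6c2 UMIs, and it held 57 of the 94 Ccl2 UMIs and 48 of the 48 Ccl7 UMIs of all chosen KO cells. These chemokines, which draw monocytes, are therefore not described further as a property of the KO cells.

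The Irf8 cells held no Plet1 in either library. The 11 KO cells had 6 to 51 Irf8 UMIs with a median of 19, and Irf4 in 1 of the 11. Naaa, a lysosomal amidase high in cDC1 (chromosome 5, 92257659 to 92278170, minus strand), was seen in each of the 11, at 2 to 24 UMIs with a median of 16. Wdfy4, needed for cross-presentation by cDC1, stood at 548 CPM in these cells, but also at 404 and 338 CPM in the remaining cells of WT and KO.

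Naaa stood at 804 CPM in these 11 KO cells, against 659 CPM in the KO cDC1 group. The cDC1 list summed to 2821 CPM in them and 2719 CPM in the KO cDC1, but 1192 and 899 CPM of these sums were Irf8, the gene that chose the cells. The defining cDC1 gene Xcr1 stood at 5.32 CPM against 156 CPM, as the rule required. These Irf8 cells, with at most 1 UMI of Xcr1 or Clec9a as the rule allowed, made up 11 of the 21 KO and 3 of the 42 WT cells, beside 1 Krt8 and 1 Ly6c2 cell of WT that also had at least 5 Irf8 UMIs. In KO, with Irf4 seen in 1 of the 11, the label of a cDC2 was not borne out for them. Among all chosen cells, 40 in WT and 13 in KO had no UMI of either gene.

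**Figure D3:**
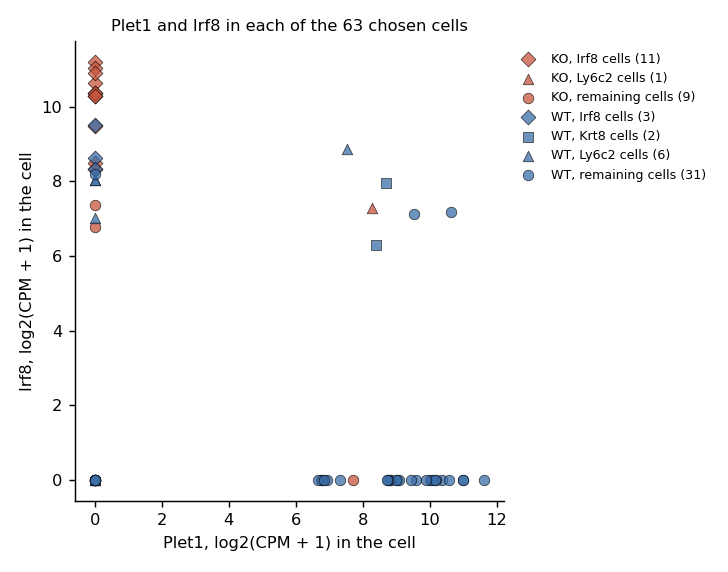
Irf8 (y axis) against Plet1 (x axis) in each of the 63 chosen cells, both as log2(CPM + 1) of the cell, coloured by library and shaped by subset. The Irf8 cells lie on the left edge with Plet1 at 0, and most WT remaining cells lie on the lower edge with Irf8 at 0.

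Among the 61 cells left without the Krt8 cells, Plet1 and Irf8 were seen together in 4, Plet1 without Irf8 in 26, Irf8 without Plet1 in 20, and neither in 11. Spearman's rho over these cells was -0.52, given as a description because the cells share 2 libraries and differ in depth. Plet1 was seen with Itgae in 27 cells (rho 0.55) and with Irf4 in 21 (rho 0.48). Plet1 and Itgae are genes of the rule, so where they were seen together is a description as well. Irf8 and Naaa had a rho of 0.88 in the 21 KO cells but of 0.15 in the 40 WT cells. Itgae and Irf4 had a rho of 0.60 in WT and -0.17 in KO, and Itgae was seen in 7 of the 11 KO Irf8 cells.

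In the 31 remaining WT cells Irf4 stood at 150 CPM, against 88.8 CPM in the WT Cd209a Mgl2 cDC2 and 8.04 CPM in the WT cDC1, and was seen in 17 cells. Irf8 stood at 20.9 CPM, a level held down by the removal of cells with at least 5 Irf8 UMIs. Of the genes that the rule used, Plet1 stood at 727 CPM (25 of 31 cells, 0 to 34 UMIs, median 5) and Itgae at 434 CPM (26 of 31 cells, 0 to 20 UMIs, median 3). Flt3 at 275 CPM and Kit at 150 CPM, both receptors of progenitors and dendritic cells, were seen in 27 and 22 of the 31 cells.

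The 9 remaining KO cells had much less Plet1. They held 7 Plet1 UMIs in 3 cells (57.7 CPM) and 15 Itgae UMIs in 4 cells (124 CPM), with Dpp4 at 173 CPM in 8 cells. Irf4 was close in level to WT, at 132 against 150 CPM (log2 -0.18, -1.09 to 0.66). It was seen in 5 of the 9 KO cells.

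**Figure D4:**
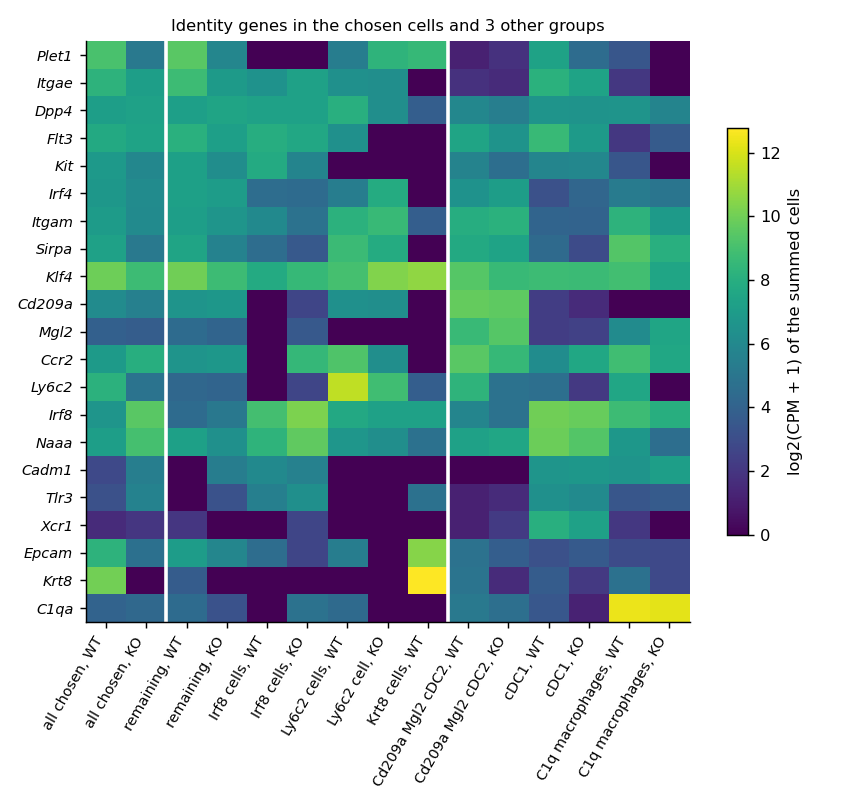
Summed level of identity genes (rows) in the chosen cells, in their subsets and in 3 other groups of each library (columns), coloured by log2(CPM + 1). The KO Irf8 cells share high Irf8 and Naaa with the cDC1 columns, the WT remaining cells are high in Plet1 and Itgae, and the Krt8 column is the brightest at Krt8.

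Within the chosen cells, 107 of 2392 genes with enough UMIs were at least 2-fold higher in KO (4.47%) and 165 were at least 2-fold lower (6.9%), with a median log2 ratio of -0.05. A gene entered with at least 50 UMIs over the libraries and a UMI in at least 10 cells of the library with the higher level. Because the 2 libraries hold different mixtures of the subsets, the values over all cells are given beside those in the remaining cells, where 53 of 1336 genes were higher (3.97%) and 138 lower (10.3%), with at least 5 cells in place of 10. Without the Krt8 cells 82 of 2198 were higher (3.73%) and 151 lower (6.87%). Set against these shares, 1 or 2 genes past 2-fold in a list of 10 or more is not a result about that list. The remaining cells were also made up differently in the 2 libraries. Dpp4 alone met the trio minimum in 3 of the 31 WT and 5 of the 9 KO remaining cells. Plet1 was seen in 25 of 31 and 3 of 9, and Itgae in 26 of 31 and 4 of 9. Ratios in the remaining cells therefore do not compare like cells.

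Of 4 measured cDC1 markers, Irf8 and Naaa passed 2-fold higher in KO and none lower. Naaa stood at 143 and 503 CPM, a log2 ratio of 1.81 (1.41 to 2.24). Among the remaining cells it stood at 153 and 82.5 CPM (-0.88, -2.03 to 0.11). Irf8 there stood at 20.9 and 33.0 CPM, with 7 and 4 UMIs (0.63, -1.56 to 2.63), and setting aside the cells with at least 5 Irf8 UMIs caps its level in both libraries.

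Of 8 measured cDC2 markers, Notch2 was higher, and Sirpa and Klf4 were lower. Sirpa, the inhibitory receptor that marks cDC2, stood at 157 and 34.2 CPM (-2.17, -3.26 to -1.28) and at 173 and 49.5 CPM in the remaining cells. Klf4, a factor of the cDC2 branch, stood at 974 and 432 CPM (-1.17, -1.46 to -0.90) and at 1005 and 429 CPM in the remaining cells. Notch2, the receptor on which gut CD103 CD11b dendritic cells depend, stood at 59.6 and 124 CPM, and at 71.8 and 99.0 CPM in the remaining cells, short of 2-fold.

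These cDC2 genes were also lower in KO elsewhere. In the Cd209a Mgl2 cDC2, Klf4 stood at 669 and 390 CPM, and Sirpa at 216 and 168 CPM. In the C1q macrophages Klf4 stood at 483 and 178 CPM and Sirpa at 655 and 267 CPM. Their lower level is therefore not particular to the chosen cells.

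Itgam, the alpha chain of CD11b by which the cells were labelled (chromosome 7, 128062640 to 128118491, plus strand), stood at 129 CPM in 29 WT cells and 68.3 CPM in 11 KO cells (-0.91, -1.69 to -0.20). In the Irf8 cells of KO it stood at 26.6 CPM, between the 15.8 CPM of the KO cDC1 and the 99.0 CPM of the remaining KO cells. Among the remaining cells its interval spanned 0 (-0.50, -1.56 to 0.43).

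Of 15 measured transcription factors of dendritic cells, Irf8 and Id2 passed 2-fold higher and Klf4 and Runx3 lower. Id2, which holds back the plasmacytoid fate, stood at 173 and 543 CPM (1.65, 1.27 to 2.04) over all cells, but stood at 168 and 115 CPM in the remaining cells. Prdm1, which encodes Blimp-1, had 28 UMIs in 13 WT cells and none in KO, at least 5.97-fold lower against a floor of 3 UMIs in the KO cells, but it is too shallow to enter the count. Spi1, the myeloid factor PU.1, stood at 320 and 311 CPM.

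Runx3, a factor in the response to TGF-beta (chromosome 4, 135120652 to 135177990, plus strand), gave 128 UMIs in 34 of 42 WT cells and 39 in 16 of 21 KO cells. The levels of 254 and 121 CPM gave a log2 ratio of -1.06 (-1.63 to -0.54). The remaining cells held 287 and 206 CPM (-0.48, -1.17 to 0.17), and the gene was lowest in the KO Irf8 cells, at 69.2 CPM. It was lower in KO in the Cd209a Mgl2 cDC2 (237 and 166 CPM), the cDC1 (243 and 172 CPM) and the macrophages (341 and 190 CPM) as well.

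Of 5 measured growth factor receptors, none was higher in KO and Kit and Csf1r were lower. Kit stood at 119 and 59.0 CPM (log2 interval -1.84 to -0.25). Csf1r, the receptor of macrophage colony-stimulating factor, stood at 87.4 and 27.9 CPM (-1.61, -2.86 to -0.59), with 9 UMIs in KO. Csf2rb, the shared beta chain of the GM-CSF receptor, stood at 572 and 432 CPM.

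Of 11 measured MHC class II genes, 1 of them H2-Aa of the rule, none was higher and H2-Oa and Ctss were lower. H2-Ab1 stood at 6302 and 8807 CPM (0.48, 0.41 to 0.56), and Cd74, the invariant chain, at 0.58. Ctss, the protease that trims the invariant chain, stood at 872 and 376 CPM (-1.21, -1.52 to -0.92). H2-Oa, which restrains peptide loading, stood at 215 and 93.2 CPM. Neither gene passed 2-fold among the remaining cells, at -0.82 and -0.89.

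Of 13 measured adhesion and migration genes, Itgb7 and Ccr2 were higher, and Epcam, Cdh1 and Itgae, a gene of the rule, were lower. Itgb7, the partner chain of Itgae, stood at 159 and 354 CPM (1.15, 0.73 to 1.59), and at 206 and 247 CPM in the remaining cells. Ccr2, the receptor of Ccl2, stood at 121 and 252 CPM, with 67 of its 81 KO UMIs in the Irf8 cells. In the remaining cells the Itgb7 levels were thus closer between the libraries and short of 2-fold, and no direction is read from them. Ccr2 gave 32 UMIs in 4 of 31 WT cells and 13 UMIs in 4 of 9 KO cells there.

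Epcam and Cdh1, the latter E-cadherin and the ligand of CD103, were partly carried by the Krt8 cells. Cdh1 gave 109 UMIs in WT, 70 of them in the Krt8 cells, and none in KO. Among the remaining cells it gave 36 UMIs in 20 of 31 WT cells against 0 in 9 KO cells, at least 4.35-fold lower against the floor. Epcam stood at 132 and 57.7 CPM there (-1.17, -2.58 to -0.03), and over all cells its ratio turned to 0.06 after thinning. The WT remaining cells held more of both than the WT Cd209a Mgl2 cDC2, at 38.1 CPM of Cdh1 and 26.6 CPM of Epcam, or the WT cDC1, at 2.01 and 8.04 CPM.

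Beside them, Krt8 gave 4 UMIs in 4 of the 31 WT cells and 0 in KO. The epithelial list of 6 genes summed to 269 and 57.7 CPM in the remaining cells, with 90 and 7 UMIs. Over the whole libraries, 93 WT and 5 KO cells had at least 10 Krt8 UMIs, so the libraries differed in epithelial content. Its part in the Cdh1 and Epcam levels was not tested.

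Of 3 measured cytokines of dendritic cells, Il1b was lower and none higher. It stood at 1164 and 373 CPM (-1.64, -1.94 to -1.36), and at 1140 and 495 CPM in the remaining cells (-1.20, -1.62 to -0.81). It was highest in the Ly6c2 cells, at 3939 CPM in WT. Il22ra2, the soluble decoy receptor of IL-22 (chromosome 10, 19621998 to 19634681, plus strand), gave 76 UMIs in 3 WT cells and 29 in 1 KO cell. Of these, 69 lay in 1 WT cell and all 29 in the KO cell, so each level rests on 1 cell.

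Of 5 measured chemokines, Ccl6 and Cxcl10 were higher and Ccl3 lower. Cxcl10, an interferon-induced ligand of Cxcr3, gave 86 and 183 UMIs, but 81 of the KO UMIs lay in 1 remaining cell and 77 in the Ly6c2 cell, so its KO level rests on 2 cells. Of the 66 KO UMIs of Ccl6, a chemokine of myeloid cells, 22 also lay in the Ly6c2 cell. Ccl3 stood at 195 and 83.9 CPM. Of the 5 chemokines measured in the remaining cells, Ccl3, Ccl4 and Cxcl2 were lower and Cxcl10 higher. The share lower over all genes there was 10.3%. The list median was -1.07 in the remaining cells, against 0.45 over all cells. Of 8 measured costimulation and checkpoint genes, Cd274 and Lgals9 were lower and none higher. Cd274, which encodes PD-L1, stood at 189 and 74.5 CPM (-1.33, -2.05 to -0.68), and at 218 and 99.0 CPM in the remaining cells, whereas Cd86 stood at 207 and 183 CPM.

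Of 10 NF-kB feedback genes Tnfaip2 and Bcl3 were lower, of 12 glycolysis genes Slc2a1 and Aldoa were lower, and of 10 MHC class I genes Psmb8 was higher. Of 17 dissociation stress genes Hspa1a and Hspa1b were higher and Egr1 lower, with a list median of 0.21. Of 3 measured genes of the TGF-beta pathway none passed 2-fold. Of 4 measured cell cycle genes Stmn1 and Tubb5 were higher, with a list median of 1.05. The list of 16 genes summed to 771 and 1882 CPM over all cells, to 885 and 792 CPM in the remaining cells, where Tubb5 stood at 305 and 214 CPM, and to 2688 CPM in the KO Irf8 cells. Few of those 11 Irf8 cells carried its mitotic genes. Top2a gave 57 UMIs in 4 of them, with 28 in the highest cell, and Mki67 gave 36 UMIs in 6, with 12 in the highest.

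The genes with the highest ratios over all cells were Txndc16 (4.30), Rab7b (3.07), Zc3h12c (2.93), Stmn1 (2.88), Irf8, Cd81 (2.72), Emp3 (2.26), Olfm1 (2.20), Lgals1 (2.11) and Pi4k2a (2.00). The direction of Olfm1 reversed in the remaining cells. Several of the listed genes were high in the cDC1 group. Txndc16, a thioredoxin-domain protein, gave 5 UMIs in 4 WT cells and 69 UMIs in 10 KO cells, and it stood at 283 and 141 CPM in the cDC1. Rab7b, a small GTPase of late endosomes, stood at 35.8 and 307 CPM, and at 561 and 417 CPM in the cDC1, but its ratio turned to -0.37 when cells were thinned to 3000 UMIs before they were chosen. In the Cd209a Mgl2 cDC2 they stood at 38.1 and 19.2 CPM and at 66.0 and 51.5 CPM.

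Emp3 and Lgals1, which encodes galectin-1, kept their ratios in the remaining cells, at 2.30 and 2.14. S100a10, an annexin A2 partner, had a ratio of 2.47 without the Krt8 cells and 2.37 in the remaining cells. The highest of the 9 remaining KO cells held 35.6%, 43.9% and 46.9% of the KO UMIs of Emp3, Lgals1 and S100a10. Emp3 stood there at 74.8 and 371 CPM. All 3 were also higher in KO in the other groups. In the cDC1 Emp3 stood at 151 and 333 CPM, Lgals1 at 324 and 488 CPM and S100a10 at 253 and 754 CPM, so the direction is one that the libraries share.

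Apart from the immunoglobulin genes, the genes with the lowest ratios over all cells were Krt19 (226 UMIs in WT and 0 in KO, at least 48.2-fold), Cdh1 (at least 23.2-fold), Ly6a (-6.20), Serpinb6b (-4.58), Ffar2 (-4.06), Plet1 (-3.95), Lgals3bp (-3.93), Epcam (-3.55), Dstn (-3.46) and Ly6c2 (-3.36). The 3 measured immunoglobulin genes, left out of this ranking and described below, had a median of -4.82. Krt19 is a keratin, and 12 of its UMIs lay outside the Krt8 cells. Without the Krt8 cells the ratio was -2.10 (-3.44 to -1.05) for Epcam and -1.54 (-2.57 to -0.66) for Dstn, an actin-severing protein with 99 of its 229 WT UMIs in 1 cell. Ly6a, the stem cell antigen Sca-1, gave 151 UMIs in 18 WT cells and 1 in KO. It was lower in KO in the Cd209a Mgl2 cDC2 (150 and 14.6 CPM), the cDC1 (113 and 5.26 CPM) and the macrophages (260 and 11.9 CPM) too. Ly6c2 was close in level in the remaining cells, at 17.9 and 16.5 CPM, and its ratio reversed with a trio minimum of 5.

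The ratio of Plet1 moved with the rule that used it. It was -3.95 under the rule, -0.35 when cells were thinned to 3000 UMIs before they were chosen, and -0.62 without the limit on Ccr7, Fscn1 and Ccl22. In the 26 WT and 4 KO cells with Plet1, leaving out the Krt8 cells, it was -1.95.

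Ffar2, a receptor for short-chain fatty acids (chromosome 7, 30818348 to 30823775, minus strand), gave 60 UMIs in 25 WT cells, 10.0% of them in its highest cell, and 2 UMIs in 1 KO cell (-4.06, -7.34 to -2.35). The remaining cells held it at 156 and 16.5 CPM, against 24.1 and 7.57 CPM in the Cd209a Mgl2 cDC2 and 6.03 and 1.31 CPM in the cDC1. Serpinb6b, a protease inhibitor, gave 49 UMIs in 12 WT cells, all of them remaining cells, and 1 UMI in KO.

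**Figure D5:**
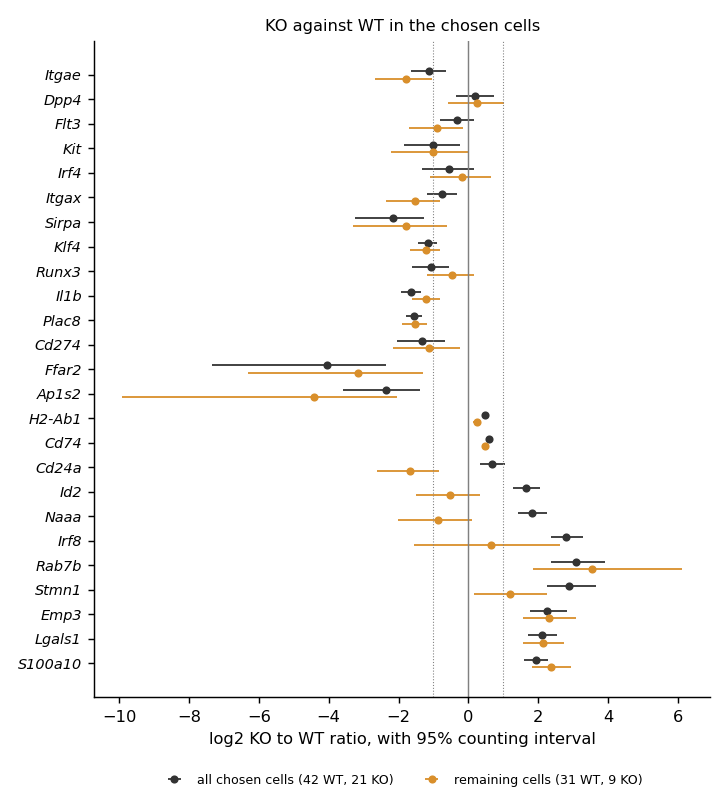
Log2 ratio of KO to WT (x axis) for genes named in the text (rows), over all chosen cells (dark) and over the remaining cells (orange), with 95% counting intervals and dotted lines at 2-fold. Sirpa, Klf4, Il1b, Ffar2 and Ap1s2 lie left of 0 in both sets, Emp3, Lgals1 and S100a10 right of 0 in both, and Irf8, Naaa and Id2 fall back from above 1 to below it in the remaining cells.

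Among the remaining cells alone, and apart from the immunoglobulin genes, the lowest ratios were those of Ap1s2 (-4.42), Plet1 (-3.63), Klf7 (-3.34), Nabp1 (-3.22), Ffar2 (-3.16), Themis2 (-2.90), Plscr1 (-2.79), Gm34084 (-2.66), Actn4 (-2.55) and Ifitm1 (-2.52). Igha and Igkc, the 2 immunoglobulin genes measured there, had a median of -5.21. Ap1s2, a subunit of the adaptor complex that buds vesicles from the Golgi (chromosome X, 163909017 to 163933666, plus strand), gave 66 UMIs in 25 of 31 WT cells and 1 UMI in KO. It was also lower in KO in the Cd209a Mgl2 cDC2, at 105 and 51.5 CPM. The highest were Cxcl10, Ahnak (2.49), S100a10, Emp3, Emp1 (2.22), Lgals1, Tagln2 (1.96), Npc2 (1.90), Ppp1r2 (1.77) and Ifitm2 (1.77). With 9 KO cells these ratios rest on few cells, and 94.2% of the Cxcl10 UMIs of KO lay in 1 of them. Of these 9 cells, 5 had met the trio minimum by Dpp4 alone, against 3 of the 31 WT cells.

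Of 7 measured genes of the dendritic core list, Id2 was past 2-fold higher and Kit lower over all chosen cells. In the 9 remaining KO cells Itgax, Kit and Cd24a of these 7 were past 2-fold lower and none higher, where 10.3% of all genes were lower. Cd24a, a glycoprotein of cDC1 and CD103 CD11b cells, stood at 341 and 107 CPM (-1.66, -2.62 to -0.84), although over all cells it stood at 260 and 416 CPM. Itgax, the alpha chain of CD11c, stood at 410 and 140 CPM (-1.54, -2.37 to -0.82). Outside that list, Anpep, the ectopeptidase CD13, stood at 126 and 16.5 CPM, with 2 UMIs in KO. Plac8, abundant in monocytes and their progeny, stood at 1717 and 594 CPM, and was lower in KO in the Cd209a Mgl2 cDC2 (1425 and 300 CPM) and the cDC1 (1212 and 300 CPM) too.

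Set beside the Cd209a Mgl2 cDC2, 31 of 5411 genes were past 2-fold higher in the chosen cells in both libraries (0.573%) and 131 lower (2.42%). The cells of both groups were chosen by their values, so these are descriptions. The 10 highest by the smaller ratio were Il22ra2, Cystm1, Pglyrp1, Apol7c, Lypd8, AW112010, Rtl8a, 2200002D01Rik, Adam19 and Spint2. In WT much of Lypd8 (340 of 345 UMIs), 2200002D01Rik (114 of 126), Pglyrp1 (45 of 59), Spint2 (45 of 71) and Cystm1 (30 of 37) lay in the Krt8 cells. Apol7c, an apolipoprotein L of cross-presenting dendritic cells, gave 29 WT UMIs, all in remaining cells, and 24 KO UMIs in 2 cells.

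The 10 lowest were Mrc1, Il1rl1, Pros1, Cd209d, Ccl9, Capg, Ccl17, Gfra2, Igf1r and Slamf9. Mrc1, the mannose receptor, stood at 181 and 135 CPM in the Cd209a Mgl2 cDC2 and gave 3 and 2 UMIs in the chosen cells. Ccl9 stood at 383 and 339 CPM there, and 21 of its 28 WT UMIs in the chosen cells lay in Ly6c2 cells. Il1rl1, the IL-33 receptor ST2, was at 0 in the chosen cells of both libraries.

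Set beside the cDC1, 85 of 4549 genes were past 2-fold higher in both libraries (1.87%) and 78 lower (1.71%). The highest were Il22ra2, Mt2, Ccr1, Ccl2, Pilra, Lypd8, Cd33, Ly6c2, Cybb and Cxcl10. Several of these were carried by few cells. In WT, 125 of the 154 Mt2 UMIs and 340 of the 345 Lypd8 UMIs lay in Krt8 cells, and 142 of the 149 Ly6c2 UMIs in Ly6c2 cells, leaving Ly6c2 at 17.9 CPM in the remaining WT cells against 24.1 CPM in the cDC1. For Ccl2 and Cxcl10, 57 of 94 and 77 of 183 KO UMIs lay in the Ly6c2 cell. Ccr1, a chemokine receptor of myeloid cells, gave 141 UMIs in 31 WT cells and 29 in 7 KO cells, and in the remaining cells stood at 368 and 190 CPM against 26.1 and 5.26 CPM in the cDC1. Cd33 and Pilra, inhibitory receptors of myeloid cells, stood at 144 and 49.5 CPM and at 173 and 57.7 CPM in the remaining cells. Cybb, the catalytic chain of the phagocyte oxidase, stood at 437 and 198 CPM against 46.2 and 12.5 CPM.

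The lowest were Hist1h2ae, Hist1h2ap, Hist1h1b, Gnb4, Hist1h3c, Asap2, Cdk1, Prdx4, Knl1 and Barx2. The replication histones led them, with Hist1h2ae at 201 and 173 CPM in the cDC1 against 4 and 5 UMIs in the chosen cells. Cdk1, the mitotic kinase, gave 0 and 4 UMIs in the chosen cells. Mki67, a gene of cycling cells, stood at 87.4 and 161 CPM in the chosen cells and at 131 and 298 CPM in the cDC1.

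Immunoglobulin transcripts, which these cells do not make, differed between the libraries. Igha gave 240 UMIs in 41 of 42 WT cells and 3 UMIs in 3 of 21 KO cells. No cell held more than 5.83% of the WT total. The immunoglobulin list took 1027 CPM in WT and 121 CPM in KO, and a scaling that left it out moved no direction.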

How the data were processed

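Deposited whole-number UMI counts were read from 1 filtered matrix per library. Per the labels and file headers the authors made these counts with Cell Ranger 3.0.2 on mm10 and analysed them in Seurat 4 (10x 3' chemistry). Of 3185 WT and 3020 KO barcodes (22191774 and 23384895 UMIs), 2597 and 2514 passed the study's filter, and 5 WT and 1 KO further barcodes met the rule but not the filter. The libraries shared 1 barcode, none among the chosen cells. Scrublet marked 1 WT and 9 KO cells as doublets, and whether it had worked was not tested. The top 3% of scores were left out as an alternative. None of these was a chosen WT cell and 1 was a chosen KO cell.

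UMIs were summed over cells per library and scaled to CPM. Intervals are exact at 95% (Poisson for CPM, binomial for ratios, Clopper-Pearson for shares) and cover counting error only. With 1 library per genotype no test was run, and a gene was counted as changed past 2-fold. The members and gene lists were chosen with earlier results of these data known. Genes were named as the rule's genes, the 10 highest and lowest ratios apart from immunoglobulin genes, members of the lists, and the 10 highest and lowest against each comparison group. Subset ratios were added later. Of the list genes, Ifi30, Clec6a, Clec7a and Mx2 were not analysed here. Coordinates come from GENCODE on GRCm38 (mm10). Scripts were tested on simulated data. Python 3.11.15, numpy 2.4.6, scipy 1.17.1, pandas 2.3.3, scanpy 1.11.5, anndata 0.12.19 and matplotlib 3.10.9 were used. Alternatives covered thinning, the limits of the rule, the cell and gene filters, doublet scores, scaling and the prior.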

Additional observations from a re-analysis of the deposited data

Results flagged for a closer look

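The Irf8 ratio of KO to WT had opposite signs in the chosen cells and in the Cd209a Mgl2 cDC2 of the same libraries. In the chosen cells the log2 ratio of KO to WT was 2.81 (2.37 to 3.28), and in the Cd209a Mgl2 cDC2 it was -1.01 (-1.63 to -0.43), from 44 and 54 UMIs. The ratios differ by 3.81. Of the 230 Irf8 UMIs of the chosen KO cells, 224 lay in the 11 Irf8 cells, for which the label of a cDC2 was not borne out. The ratio in the chosen cells thus follows which cells the rule let in. As given above, it was smaller after thinning and without the limit on Ccr7, Fscn1 and Ccl22. With 1 library per genotype the difference was not tested. In the remaining cells, where the removal of cells with at least 5 Irf8 UMIs caps the level, the ratio was 0.63 (-1.56 to 2.63).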

How the results depend on the processing

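No paired analysis was possible because each genotype has 1 library. Of 26 named genes past 2-fold, followed under 19 alternatives, 481 of 493 values kept their direction and 12 reversed. Some alternatives could not turn a direction. The minimums of 20 and 200 UMIs per gene do not alter a ratio, and adding 10 CPM cannot change its sign. Each of these left all 26 genes the same. The 26 genes were also picked as past 2-fold in these same data, so the count of 481 is not a measure of support. The size of the ratios was less stable. Without reversing, 13 genes were counted as moved after thinning and 10 with a trio minimum of 2. Without the Ccr7, Fscn1 and Ccl22 limit 15 moved, and without the Cd209a, Mgl2 and Clec10a limit 18. After thinning to 3000 UMIs the shares were 2.66% in WT and 1.83% in KO, 21 genes were higher and 25 lower, and Rab7b (-0.37), Epcam (0.063) and Itgae (0.027) reversed. With a trio minimum of 2 the shares were 2.50% and 1.71% with 70 higher genes; with 5 they were 1.00% and 0.318% with 0 higher genes, and Ly6c2 reversed (1.94). With no Xcr1 or Clec9a UMI the KO share was 0.517% with 41 higher genes, and with Cd209a, Mgl2 and Clec10a below 2 the WT share was 1.12%. A minimum of 20 UMIs per gene gave 184 higher and 486 lower genes, and one of 200 gave 24 and 20. The next alternatives were chosen after seeing the data. In the remaining cells the KO share was 0.358% with 53 higher genes, and Olfm1 (-0.12), Naaa (-0.88) and Id2 (-0.53) reversed. In the Plet1 cells the shares were 1.00% and 0.159% (log2 -2.65), with 46 higher and 108 lower genes. Txndc16 (-2.98), Stmn1 (-5.71), Cd81 (-3.88), Epcam (0.0057) and Naaa (-1.78) reversed there. For Txndc16, Stmn1 and Cd81 the KO count was 0, in 4 cells with 50769 UMIs. The floor of 3 UMIs is 59.1 CPM in those cells, above the WT levels (51.5 CPM for Stmn1). The ratios of Txndc16, Stmn1 and Cd81 are thus set by the added 1 CPM, and their direction cannot be read. They remain counted among the 12 reversals. Without the Ccr7, Fscn1 and Ccl22 limit the shares were 2.66% and 2.59% (log2 -0.039) with 248 lower genes. Without the Cd209a, Mgl2 and Clec10a limit they were 3.04% and 3.38% (log2 0.15, a reversal) with 288 lower genes. The other alternatives moved no share and no count past 1.5 times. The cause of these changes was not tested. The depth of 322006 UMIs in 21 KO cells limits genes under 50 UMIs.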
